A study of Mus musculus with 11 samples.

Results

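In cultures of the mouse embryonic stem cell line E14 driven toward ventral hindbrain neurons, 29 of 38197 genes stood highest at day 2 of the differentiation and lower on days 0, 1 and 3. They include Wnt1, the R-spondin Rspo3 and the Wnt target genes Axin2 and Sp5, the growth factor genes Fgf3 and Fgf15, the dorsal transcription factor genes Msx1 and Zic1, and Gli3, which encodes a transcription factor of the hedgehog pathway. The genes were picked from the deposited log2 CPM values (CPM, counts scaled to the library total, on a log2 scale). In each, the lower of the 2 day 2 libraries lay at least 0.5 above the highest of the 6 libraries of days 0, 1 and 3, and the day 2 mean was at least 1. Hox genes were to be left out, and 0 met the rule. The 29 genes are 0.232% of the 12516 genes with a day 2 mean of at least 1. The same rule turned to the other days gave 647 genes for day 0, 278 for day 1 and 963 for day 3. Because these values chose the genes, the height of the day 2 peak is described here and not tested.

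Polyadenylated RNA was sequenced from wild type E14 cells of strain 129 grown as a monolayer. Day 0 held cells labelled as embryonic stem cells, and days 1, 2 and 3 held unsorted cultures in differentiation conditions. Per the labels, retinoic acid (RA), which gives neural cells a hindbrain identity, and SAG, an agonist of Smoothened that turns on hedgehog signaling, were applied from day 0 to day 3, and the treatment text is the same for every library. Each of these 4 days has 2 libraries, and a further 3 libraries hold cells sorted for Prominin-1, which neural progenitors carry on their surface. The sorted cells are called day 3.5 after their cell status label, although another label gives 3 days. There was no culture without RA and SAG, so a day and the time under treatment cannot be told apart. Nor do the labels say that replicates were separate cultures, so p-values measure only the spread between these libraries. Totals ran from 26136331 to 30384599 counts on days 0 to 3, and from 13173674 to 17113430 at day 3.5, where sort and sequencing project also differ from the other days. CPM here are scaled to the library total alone. In bulk RNA, fewer cells of a type and less RNA per cell cannot be told apart.

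Several of these genes belong to signals that pattern the embryonic neural tube. Wnt ligands bind Frizzled receptors and stabilise beta-catenin, which acts with TCF and LEF factors on target genes such as Axin2 and Sp5, and R-spondins raise the number of Frizzled receptors at the surface. Wnt and BMP signals from the roof plate promote dorsal fates, while hedgehog from the floor plate promotes ventral fates and limits the repressor form of Gli3. Fgf3 and Fgf15 are ligands of the FGF family expressed in the developing hindbrain and in other parts of the neural tube.

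The promoters of 3 Wnt pathway members are shown because they hold different numbers of the short motif that TCF and LEF factors recognise. The 250 bases before the RefSeq start site (GRCm38.p6) are given for Sp5 (chr2:70474673-70474922), Axin2 (chr11:108920099-108920348) and Wnt1 (chr15:98789607-98789856), all on the plus strand. Capitals mark the TCF/LEF core CTTTGA, searched on both strands. This motif was chosen after the genes were known.
Sp5: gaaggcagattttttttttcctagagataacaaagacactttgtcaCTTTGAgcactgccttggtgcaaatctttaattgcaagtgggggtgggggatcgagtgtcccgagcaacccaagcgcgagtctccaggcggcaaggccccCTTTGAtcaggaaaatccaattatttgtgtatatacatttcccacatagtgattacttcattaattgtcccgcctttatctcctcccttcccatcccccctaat
Axin2: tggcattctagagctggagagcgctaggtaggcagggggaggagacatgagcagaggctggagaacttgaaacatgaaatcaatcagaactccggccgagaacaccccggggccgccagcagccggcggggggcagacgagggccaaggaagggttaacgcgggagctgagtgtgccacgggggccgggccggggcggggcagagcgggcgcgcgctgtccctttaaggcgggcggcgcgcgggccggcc
Wnt1: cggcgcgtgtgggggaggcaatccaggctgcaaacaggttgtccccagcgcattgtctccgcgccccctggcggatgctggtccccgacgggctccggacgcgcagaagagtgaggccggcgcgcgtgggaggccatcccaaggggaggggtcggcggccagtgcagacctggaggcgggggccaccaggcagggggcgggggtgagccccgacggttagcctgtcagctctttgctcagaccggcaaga
Sp5 held 2 copies, at positions -204 to -199 and -104 to -99 from the start, and neither overlapped another motif searched. Axin2 and Wnt1 held none in this window. Of the 29 genes 20 had a promoter in the RefSeq table, and 4 of them carried the core (5730596B20Rik, Fgf3, Sp5 and Tnfrsf19), beside 13.8% of all 32851 promoters. These 20 genes had 22 promoters, so a count of genes stands here beside a share of promoters. Other motifs searched were as common, with the GATA site in 4 genes (9.99% of all promoters) and the E-box in 4 (13%). The CCAAT box was in 7 (33.8%), and the rest were in 0 to 2. The GLI site TGGGTGGTC was in 0 of the 20 and in 0.225% of all promoters. A match to these letters is a description of the sequence and not a binding site.

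Wnt1, which encodes a ligand of the midbrain-hindbrain boundary and dorsal midline, had the widest margin. Its CPM was 0.23 and 0 on day 0, 0.215 and 0.0332 on day 1, 6.42 and 5.87 on day 2, 0.731 and 1.12 on day 3 and 0.351, 0.258 and 0.304 in the sorted cells. Both day 2 libraries lay above 5 times the highest other one, and the day 3.5 libraries were back below day 3. Sp5, a target gene of Wnt signaling that encodes a zinc finger repressor, measured 1.48 and 0.727 CPM on day 0, 0.429 and 0.598 on day 1, 6.65 and 7.98 on day 2, 1.2 and 2.21 on day 3 and 0.467, 0.258 and 0.38 in the sorted cells. Its sorted libraries lay below those of day 3 and overlapped day 1. Axin2, a feedback inhibitor that is transcribed in response to Wnt, was already present at day 0. Its CPM was 15 and 6.96 on day 0, 8.26 and 15.4 on day 1, 37.4 and 42 on day 2, 23.9 and 26.1 on day 3 and 17, 16.4 and 23.2 in the sorted cells. Day 3 libraries stayed above all of days 0 and 1. Rspo3 reached 1.97 and 2.88 CPM on day 2 against 0.299 and 1.06 on day 3, and its sorted libraries at 1.99, 2.52 and 1.06 overlapped day 2.

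Fgf3 and Fgf15 lie next to each other among the 29 genes on chromosome 7 (chr7:144838083-144844436 and chr7:144896531-144900953, GRCm38, both plus strand), 52.1 kb apart. Fgf15 measured 10.5 and 10.3 CPM on day 0, 0.215 and 0.498 on day 1, 47.8 and 41.9 on day 2, 4.62 and 16.3 on day 3 and 3.68, 9.23 and 5.16 in the sorted cells. It was lowest at day 1, and its day 3 libraries were far apart. Fgf3 went from 3.52 and 2.03 through 0.894 and 1.36 to 9.02 and 9.2 CPM on day 2, then 2.92 and 4.13 on day 3 and 1.58, 1.36 and 1.82 in the sorted cells. Day 1 was the low point for both genes among days 0 to 3. Fgf4, an FGF ligand of stem cells encoded in the same region of chromosome 7, fell at both steps (edgeR), from 105 and 126.1 CPM on day 0 to 4.29 and 4.12 on day 1 and 0.297 and 0.0369 on day 2.

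Among transcription regulators, Msx1, a homeodomain factor of dorsal neural tube and neural crest, rested on unequal replicates. It had 8.1 and 16.6 CPM on day 2, with 1.61 and 1.26 on day 0, 0.894 and 0.997 on day 1, 0.598 and 1.98 on day 3 and 0.526, 0.839 and 0.531 in the sorted cells. Zic1, a zinc finger factor of dorsal neural progenitors, was more even, with 0.625 and 0.459 on day 0, 1.04 and 1.13 on day 1, 10.2 and 11.3 on day 2, 2.22 and 5.42 on day 3 and 3.1, 3.23 and 3.04 in the sorted cells. After the peak it remained above its day 0 and day 1 levels in all 5 later libraries. Id1, an inhibitor of bHLH factors and a BMP target gene, was lowest on day 1. Its CPM was 16.3 and 13.9 on day 0, 0.572 and 1.26 on day 1, 24.1 and 32.3 on day 2, 11.5 and 16 on day 3 and 15, 16.6 and 13.8 in the sorted cells, so that all libraries of days 0, 3 and 3.5 lay between those of day 1 and day 2. Gli3 was high throughout, at 66.3 and 63.2 CPM on day 0, 103 and 97 on day 1, 160.4 and 172 on day 2, 60.6 and 98.6 on day 3 and 75.6, 82.9 and 63.4 in the sorted cells. Day 1 was its next highest day.

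**Figure D1:**
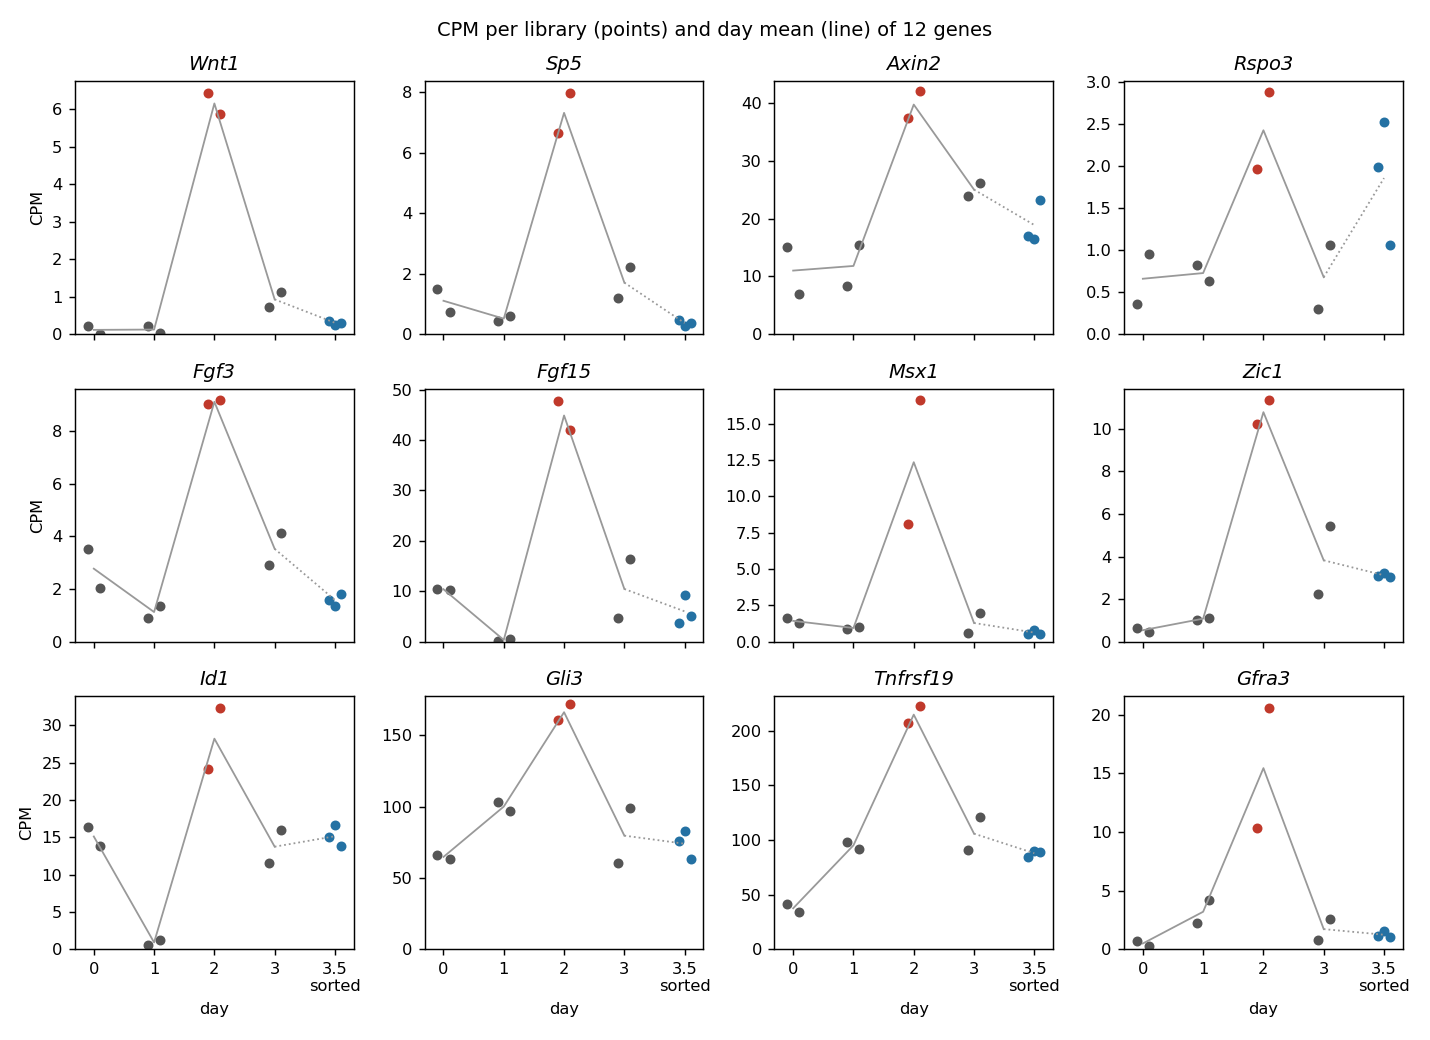
CPM of 12 signaling and transcription factor genes in each library (points; red day 2, blue sorted day 3.5, grey other days) against day, with lines joining day means and each vertical axis starting at 0. Day 2 points lie above all points of days 0, 1 and 3 in every panel by the rule, while sorted Rspo3 libraries reach 2.52 CPM and overlap day 2.

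Receptor genes formed another group. Gfra3, the co-receptor for artemin on the RET kinase, had 0.724 and 0.268 CPM on day 0, 2.22 and 4.19 on day 1, 10.3 and 20.6 on day 2, 0.83 and 2.61 on day 3 and 1.11, 1.55 and 1.06 in the sorted cells. The 2 day 2 libraries differed, and the rule set both above days 0, 1 and 3. Its partner Ret followed another course, at 15.7 and 15.9 CPM on day 1, 14.1 and 33.2 on day 2 and 20.3 and 22.6 on day 3, and the ligand gene Artn stood at 0.891 and 0.295 on day 2. Tnfrsf19, also called TROY, a receptor of the TNF receptor family, was abundant at 41.2 and 33.9 CPM on day 0, 98.2 and 92.1 on day 1, 207 and 222 on day 2, 90.7 and 121 on day 3 and 84.3, 90 and 89.4 in the sorted cells. Its days 1, 3 and 3.5 lay close together. Flt4, the VEGF-C receptor VEGFR3, measured 5.59 and 3.06 on day 0, 4.61 and 8.24 on day 1, 28.1 and 21.2 on day 2, 14.4 and 13.2 on day 3 and 3.27, 5.55 and 7.06 in the sorted cells. Of 15 endothelium and blood markers, summed FPKM (fragments scaled to transcript length and library size) was 12.4 to 14.8 at day 1, 8.51 to 12.6 at day 2, 9.38 to 12.6 at day 3 and 3.72 to 5.50 at day 3.5, and Emcn was at 0 on days 2, 3 and 3.5. From day 1 to day 2, edgeR called Cdh5, Flt1 and Kdr of this list higher and Lmo2, Pecam1 and Tek lower among 13 tested, beside 9.65% and 9.99% of all genes. Cdh5 was called higher again at day 3 against day 2, beside 2.81%. In the sorted cells against day 3, Flt1 and Tek were called lower, beside 2.93%, and 0 higher, beside 0.435%. The part of these markers in the Flt4 values was not tested.

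Matrix, secreted and membrane proteins made up a further set. Hapln1, which links hyaluronan to proteoglycans, went from 1.29 and 1.43 CPM on day 1 to 7.98 and 5.24 on day 2 and 2.09 and 2.61 on day 3. Chst7, a sulfotransferase of chondroitin chains, had 2.56 and 2.88 CPM on day 2 and 0.93 and 1.42 on day 3. Wfikkn1, which binds and inhibits myostatin and GDF11, had 0.465 and 2.66 on day 1, 4.83 and 5.13 on day 2 and 2.62 and 2.21 on day 3, and its 2 day 1 libraries differed widely. Kcng1, a modifier subunit of voltage-gated potassium channels, had 5.94 and 7.68 CPM on day 1, 14.7 and 17.7 on day 2 and 7.6 and 8.23 on day 3. Orai1, the pore of store-operated calcium entry, had 6.32 and 2.83 CPM on day 0 and 3.11 and 6.78 on day 1, also with unequal replicates. It had 10 and 12.2 CPM on day 2 and 5.28 and 6.24 on day 3. By the rule, all of these were below their day 2 level in both day 3 libraries. Tns3, an actin-linked protein of cell adhesions, measured 209.7 and 234 CPM on day 0, 136 and 182 on day 1, 519 and 508 on day 2, 345 and 349.5 on day 3 and 179, 222 and 226 in the sorted cells, so the sorted cells overlapped day 0.

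Of the enzymes, Cyp1b1, a cytochrome P450 that can oxidise retinoids and steroids, was among the most abundant. It had 10.9 and 15.4 CPM on day 0, 17.3 and 13.2 on day 1, 144 and 158 on day 2, 24.9 and 83.6 on day 3 and 76.8, 86.5 and 50.9 in the sorted cells. The 2 day 3 libraries were far apart, and the sorted ones lay between them or just above. Genes of monoamine metabolism were present too. Ddc, which makes dopamine and serotonin from their precursors, had 7.47 and 9.91 CPM on day 0, 17.4 and 22 on day 1, 32 and 35.6 on day 2, 16.5 and 18.3 on day 3 and 35, 26.2 and 20.3 in the sorted cells, where 1 sorted library reached the day 2 range. Maob, monoamine oxidase B, which breaks amines down, had 0.79 and 0.88 CPM on day 0, 6.69 and 5.68 on day 1, 11 and 13.4 on day 2, 5.55 and 6.01 on day 3 and 4.09, 3.87 and 2.2 in the sorted cells. Both Maob libraries of day 1 already lay above day 0. Pla2g7, the platelet-activating factor acetylhydrolase, measured 3.93 and 3.22 on day 1, 36.5 and 25.1 on day 2 and 6.28 and 16 on day 3. It was lowest on day 1. Me3, a mitochondrial malic enzyme, had 4.79 and 7.98 CPM on day 2 and 2.52 and 3.07 on day 3. Slc25a10, the mitochondrial dicarboxylate carrier, had 10 and 3.21 CPM on day 0 and 6.54 and 17.6 on day 1, with replicates far apart on both days. It had 27.9 and 32.4 on day 2 and 17.4 and 18 on day 3.

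Of the 29 genes 16 overlap another annotated gene, and no source used here states the counting strand, so the gene of origin of their reads is uncertain. Among them are Fgf15, Gli3, Axin2, Rspo3, Zic1, Ddc and Tnfrsf19. The antisense RNA 9130410C08Rik was at 0 counts in both day 0 libraries and had 0.393 and 0.199 CPM on day 1, 4.23 and 5.21 on day 2 and 2.36 and 2.28 on day 3, at least 41.1-fold higher at day 2 than a floor of 3 counts per library. 5730596B20Rik overlaps Hoxa3 on the other strand and the antisense gene Hoxaas3 on its own, and had 3.19 and 3.1 CPM on day 2 and 5.08, 3.36 and 2.43 in the sorted cells. Mdk-ps1 is a processed pseudogene of Mdk, a heparin-binding growth factor gene, and Mdk itself had 127.9 and 338 CPM on day 1, 419 and 598 on day 2 and 245 and 269.9 on day 3, with a margin of 0.31. Whether reads counted for Mdk-ps1 came from Mdk was not tested. Zic4, which overlaps Zic1 on the other strand, had 0.668 and 0.185 CPM on day 2. In all, 26 of the 29 are protein coding in GENCODE M21 and Gm17296 has no entry there.

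**Figure D2:**
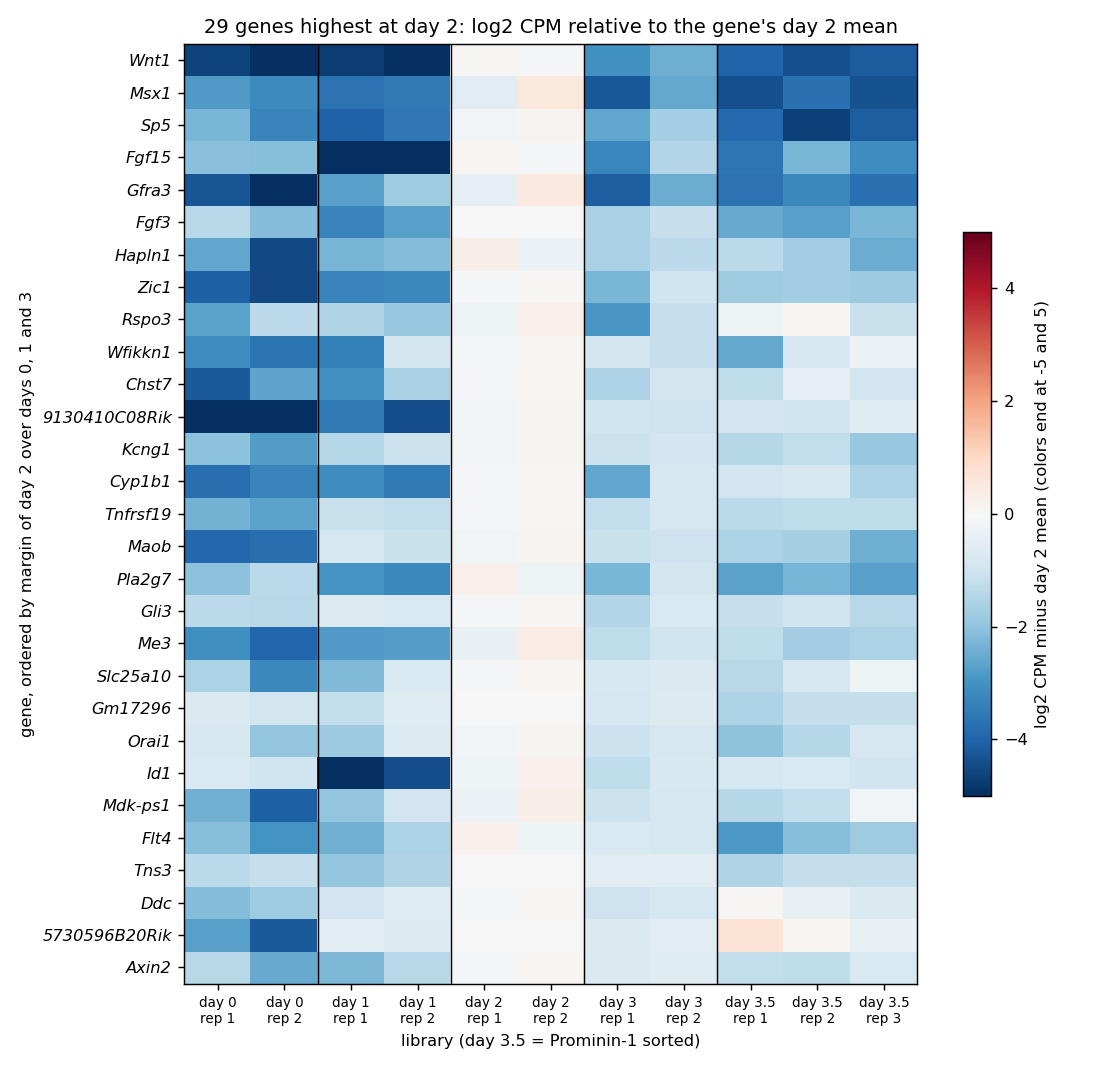
Log2 CPM of the 29 genes (rows, ordered by margin) in 11 libraries (columns, black lines between days) relative to each gene's day 2 mean, in red above and blue below, with colors ending at -5 and 5. Columns of days 0, 1 and 3 are blue in every row by the rule, and the palest sorted rows are Rspo3, Ddc and 5730596B20Rik.

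Margins ran from 0.52 to 2.37 with a median of 0.78, 7 genes had a margin of at least 1 and 9 one under 0.6. The members just inside the limit were Ddc (0.54), 5730596B20Rik (0.53) and Axin2 (0.52). On log2(FPKM + 0.1) the margins of Axin2 (0.26), Slc25a10 (0.36) and 5730596B20Rik (0.45) were under 0.5. Just outside, at 0.48 each, were Chsy1, a chondroitin synthase, the retinoic acid binding protein gene Crabp2 and Lhfpl2. Day 2 means lay above day 3 means by 0.56 to 3.39 (log2), median 1.07, and above day 0 means by a median of 2.55. Of the 29 genes 20 had day 3 as their next highest day, 6 day 1 and 3 day 0. In 18 the highest library outside day 2 was day 3 replicate 2, which was above day 3 replicate 1 in 26 of the 29, against 46.2% of genes with a day 2 mean of at least 1. Without that library the rule gives 74 genes, and without day 2 replicate 1 it gives 112. Over the step from day 1 to day 2, edgeR called 13 of 17 neural progenitor markers other than Zic1 higher and 1, Pou3f1, lower, beside 9.65% and 9.99% of all genes tested. The summed FPKM of that whole list was 242 to 280 on day 1 and 955 to 1021 on day 2. Of 30 extraembryonic endoderm markers tested, 16 were called higher, beside the same 9.65%, with summed FPKM over the list of 504 to 583 on day 1 and 1034 to 1128 on day 2, and Apoa1 was the 1 listed marker at 0 counts in both day 2 libraries. The part of either cell type in the day 2 values was not tested.

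Per length, day 2 FPKM ran from 0.714 to 143 with a median of 5.30, and 10 genes had at least 10. The highest were Mdk-ps1 (143 ± 40, SD, n = 2), Tns3 (52.9 ± 0.37), Tnfrsf19 (40.8 ± 2.1) and Id1 (28.5 ± 6), then Cyp1b1, Slc25a10, Ddc, Fgf15, Gli3 and Pla2g7. Wnt1 (2.09 ± 0.12), Zic1 (2.11 ± 0.41) and Rspo3 (0.82 ± 0.22) were low.

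**Figure D3:**
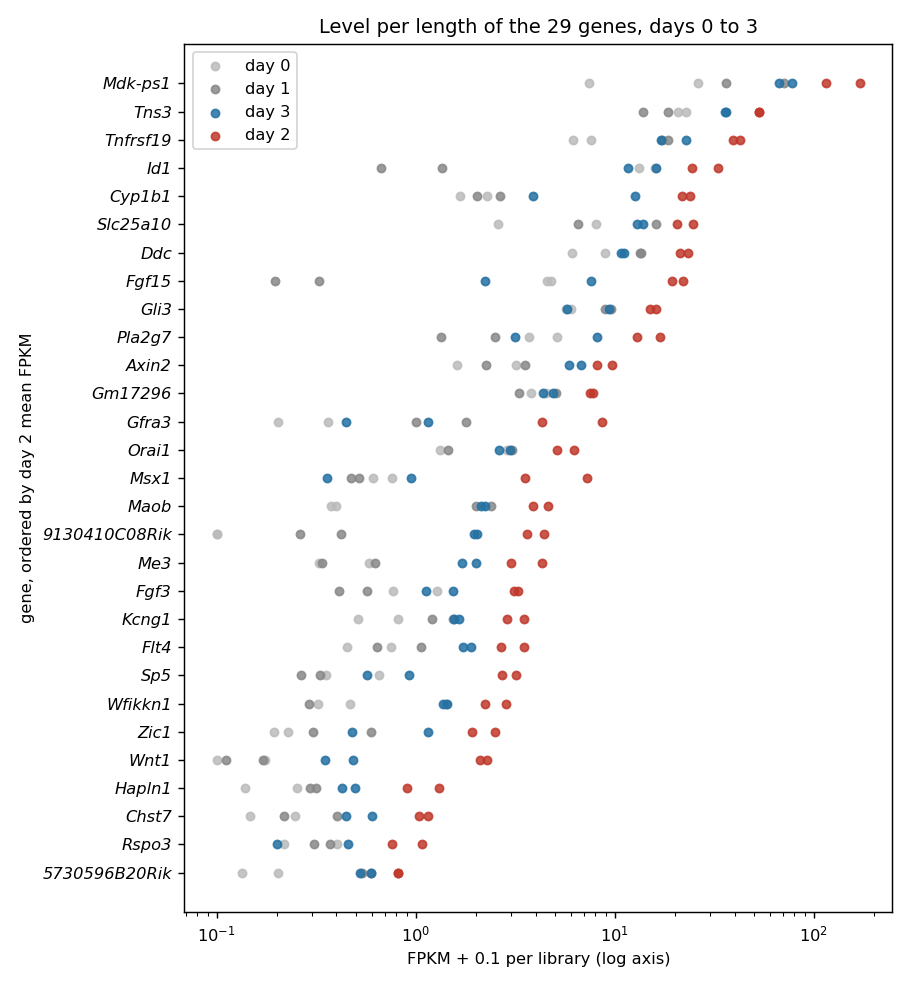
FPKM + 0.1 of each gene in the libraries of days 0 to 3 (points, log axis), genes ordered by day 2 mean. Red day 2 points span from 5730596B20Rik with a day 2 mean of 0.714 FPKM to the pseudogene Mdk-ps1 with 143, so the rule picked genes of very different levels.

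The edgeR fit of day 2 against day 1 called 23 of the 29 higher, beside 9.65% of all 16810 genes tested, and that of day 3 against day 2 called 5 lower (Msx1, Sp5, Gfra3, Tnfrsf19 and Gli3), beside 1.26% lower and 2.81% higher over all genes. The rule used both steps, so nothing is read from these counts, and the second moved between 0 and 25 with the settings. Over all genes tested 8 were called in both steps, these 5 and Crabp2, Myc and Serpinf1.

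Whether the genes had begun to change a day earlier is asked by day 1 against day 0, a step whose order the rule left free. The rule capped both days below day 2. At day 1, 7 genes were called higher, beside 12% of all genes, and 5 lower, beside 8.91%. The higher ones were Maob at 2.75 ± 0.31 (SE; edgeR adjusted p = 0.000785), Tnfrsf19 at 1.21 ± 0.18 (SE; edgeR adjusted p = 0.00294), Gfra3, Ddc, Kcng1, 5730596B20Rik and 9130410C08Rik. The lower ones were Fgf15 at -4.99 ± 0.65 (SE; edgeR adjusted p = 0.00154), Id1 at -4.18 ± 0.38 (SE; edgeR adjusted p = 0.000284), Fgf3 at -1.43 ± 0.38 (SE; edgeR adjusted p = 0.0278), Pla2g7 and Tns3. Thus 2 FGF ligands and the BMP target Id1 fell before they peaked. This fall was not particular to them. Of 17 other genes on the FGF list 10 were called lower at this step and 0 higher. Of 21 others on the BMP and TGF-beta list 12 were called lower, Id2, Id3 and Id4 among them, and 2 higher. The median log2 change of the 29 was 0.49, against 0.01 over all genes. The calls of Fgf15, Id1, Maob, Tnfrsf19 and 5730596B20Rik held in every setting that tested them, and that of Fgf3 was lost in 10 of 17, among them without day 0 replicate 1, day 1 replicate 1 or either day 2 library. Leaving out some single library also ended the calls of Ddc, Gfra3, Kcng1, Pla2g7 and Tns3. Without day 1 replicate 2 the higher count was 4, and the lower count was 3 without day 0 replicate 2 and 2 without day 1 replicate 1 or either day 2 library.

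Day 3 against day 0 asks whether the genes came back to their starting level. The rule capped both days below day 2, which shut out genes that fell or rose steadily from day 0 to day 3. The shares and the median over all genes include such genes, so they are not a matched background. At day 3, 17 genes were called higher, beside 27.6% of all genes, and 0 lower, beside 26.3%, with 0 lower also at an unadjusted p under 0.05 and by DESeq2. Among them were Maob at 2.64 ± 0.31 (SE; edgeR adjusted p = 0.000133), Zic1 at 2.67 ± 0.48 (SE; edgeR adjusted p = 0.00148), Wnt1 at 2.76 ± 0.87 (SE; edgeR adjusted p = 0.024), Cyp1b1 at 1.90 ± 0.49 (SE; edgeR adjusted p = 0.00971) and Axin2 at 1.05 ± 0.35 (SE; edgeR adjusted p = 0.0301). Tnfrsf19, Flt4, Kcng1, Me3, Tns3, Ddc, Hapln1, Chst7, Wfikkn1, Mdk-ps1, 5730596B20Rik and 9130410C08Rik were also called. The other 12 did not pass, among them Fgf15 at -0.13 ± 0.49 (SE; edgeR adjusted p = 0.843), Fgf3 at 0.21 ± 0.35 (SE; edgeR adjusted p = 0.641), Id1 at -0.28 ± 0.31 (SE; edgeR adjusted p = 0.477), Msx1 at -0.29 ± 0.56 (SE; edgeR adjusted p = 0.684), Gli3 at 0.16 ± 0.23 (SE; edgeR adjusted p = 0.582) and Sp5 at 0.49 ± 0.45 (SE; edgeR adjusted p = 0.383). The median of the 29 was 1.29 (log2), against 0.02 over all genes. Maob, Tnfrsf19, Flt4, Kcng1, Me3, Mdk-ps1, 5730596B20Rik and 9130410C08Rik passed in every setting that tested them. The count was 9 without day 3 replicate 2 (1 lower then) and 13 without day 0 replicate 2. Leaving out a single library ended the call of 8 of the 17 genes, namely Axin2, Chst7, Cyp1b1, Ddc, Hapln1, Tns3, Wfikkn1 and Wnt1. Cyp1b1 went to 0.74 (edgeR adjusted p = 0.0862) without day 3 replicate 2, and Wnt1 to 2.39 (edgeR adjusted p = 0.104). Without day 0 replicate 2, Axin2 went to 0.64 (edgeR adjusted p = 0.148), Hapln1 to 1.07 (edgeR adjusted p = 0.0940) and Wnt1 to 1.90 (edgeR adjusted p = 0.0728). Axin2 also missed the threshold without either day 3 library, and Chst7 went to 1.27 (edgeR adjusted p = 0.159) without day 0 replicate 1.

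**Figure D4:**
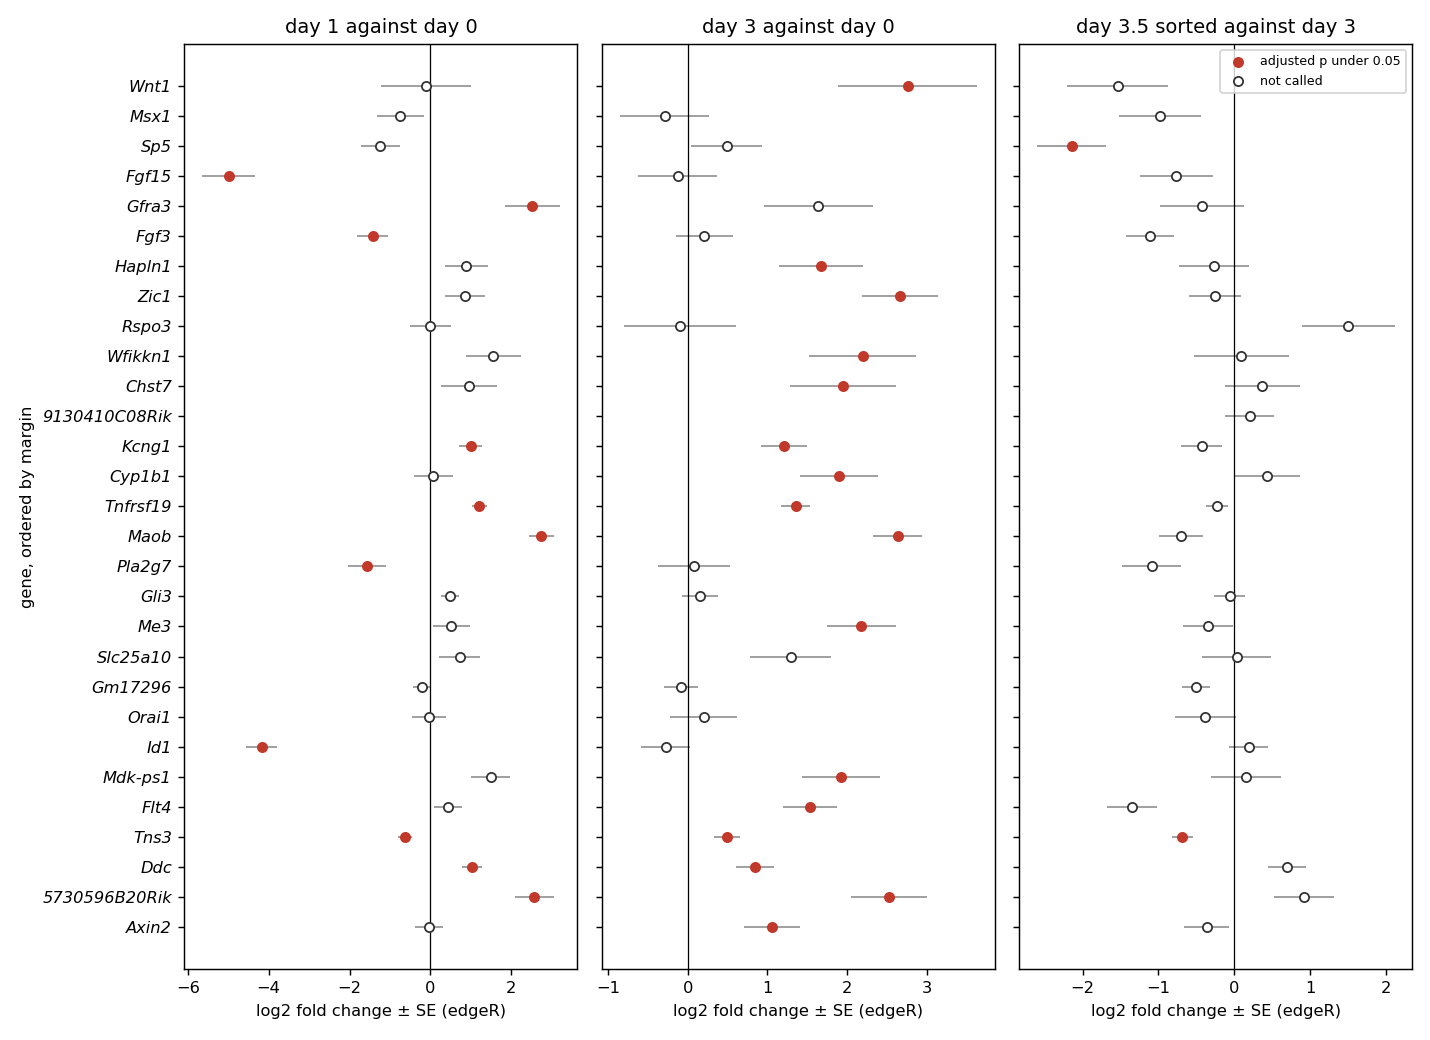
Log2 fold change ± SE (edgeR) of the 29 genes in 3 comparisons, filled red where the adjusted p was under 0.05. Fgf15 and Id1 stand far left at day 1, Maob and Zic1 right at day 3, and Sp5 and Tns3 are the filled points at day 3.5; 9130410C08Rik is not drawn against day 0, where it was at 0 counts.

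The rule used day 2 but not the day 3.5 libraries. All 3 of these lay below both day 2 libraries in 25 of the 29 genes, against 32.5% of the 12516 genes with a day 2 mean of at least 1, and the exceptions were Rspo3, Mdk-ps1, Ddc and 5730596B20Rik. The day 2 values were chosen for being high, which favours this count, so nothing is read from it. With the margin of 0.5 also asked of the sorted cells 21 genes met the rule, and the other 8 were these 4, Slc25a10, Wfikkn1, Chst7 and 9130410C08Rik. For those 8 the label of a peak at day 2 alone holds only among the unsorted days. In 15 genes the sorted values lay within the range of days 0, 1 and 3. Against day 3, the sorted libraries were all below in 11 genes (beside 20.6% of the same 12516 genes), all above in 3 (beside 14%) and overlapping in 15. Here edgeR called 2 lower, beside 2.93% of 17006 genes, Sp5 at -2.14 ± 0.45 (SE; edgeR adjusted p = 0.0267) and Tns3 at -0.69 ± 0.14 (SE; edgeR adjusted p = 0.0232). It called 0 higher, beside 0.435%, with 3 at an unadjusted p under 0.05 and 0 by DESeq2. The choice of genes favours higher values here, since the day 3 libraries were capped by the rule. Both lower calls depended on single libraries, with 0 left without day 3 replicate 2, day 3.5 replicate 1 or day 3.5 replicate 2, and 1 without day 3 replicate 1. Sp5 also missed the threshold without day 3.5 replicate 3 (edgeR adjusted p = 0.0699). DESeq2 on all 11 libraries called 3 of the 29 lower, with 8 lower at its unadjusted p under 0.05. Flt4 narrowly missed the threshold in the main fit, at -1.35 ± 0.33 (SE; edgeR adjusted p = 0.0525). Over the same step, 20 of 30 extraembryonic endoderm markers tested were called lower, their summed FPKM going from 1088 to 1892 at day 3 to 349 to 484 at day 3.5, with 0 of 31 at 0 counts in every sorted library. Their part in the Sp5 and Tns3 values was not tested.

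Of 26 genes on the Wnt pathway list 4 belong to the 29, and of the other 20 tested 8 rose from day 1 to day 2 (edgeR), beside 9.65% of all genes, among them Sfrp1 at 2.42 ± 0.21 (SE; edgeR adjusted p = 0.000171), Wnt5b at 2.13 ± 0.32 (SE; edgeR adjusted p = 0.0023) and Nkd1 at 1.86 ± 0.27 (SE; edgeR adjusted p = 0.00219). The other rising genes were Dkk1, Fzd10, Sfrp2, Wnt3a and Wnt5a, and Lef1 at -2.12 ± 0.34 (SE; edgeR adjusted p = 0.00312) and Wnt7b fell, beside 9.99%. From day 2 to day 3, 3 fell (Wnt8a, Sfrp5 and Tcf7), beside 1.26% of all genes, and Sfrp1, a secreted Wnt antagonist, rose again, beside 2.81%. Nkd1, a feedback inhibitor like Axin2, had 15.9 and 14.6 CPM on day 2 and 20.6 and 16.7 on day 3, and the ligand gene Wnt5a went on from 7.72 and 7.87 to 12.9 and 16.7 and, in sorted cells, 43.9, 38.6 and 39.2. The count of rises was 5 when day 1 replicate 1 was left out and 4 when day 2 replicate 1 was. The 2 falls became 1 without either day 2 library. At day 3 the count of 3 lower became 1 when day 2 replicate 2 was left out and 0 when day 3 replicate 1 was, and the rise of Sfrp1 was lost without any 1 library of days 2 and 3.

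Of the BMP and TGF-beta list Id1 was the single member. Of the other 21 genes 11 rose from day 1 to day 2, beside 9.65% of all genes, with Id3 at 5.88 ± 0.47 (SE; edgeR adjusted p = 0.000156), Nog, a BMP antagonist, at 5.29 ± 0.58 (SE; edgeR adjusted p = 0.000504), Id2 at 3.34 ± 0.27 (SE; edgeR adjusted p = 0.000156) and Bmp4 at 2.39 ± 0.35 (SE; edgeR adjusted p = 0.00224), then Id4, Fst, Tgfb2, Bmp2, Bmp5, Bmp7 and Smad7. Gdf3 and Nodal fell, beside 9.99%. Id2 had 127.5 and 142 CPM on day 2 and 54.9 and 91.6 on day 3 and missed the margin at 0.48, while Id3 at 88.3 and 115 and then 92.3 and 81.5 overlapped between these days. Without day 2 replicate 1 the rising count was 7, and the falling count was 1 without either day 2 library.

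Other genes of the FGF list went the other way from its 2 members at day 2. Of the other 17 genes 10 fell from day 1 to day 2, beside 9.99% of all genes, and 0 rose, with 1 higher at an unadjusted p under 0.05. The falling genes were the ligands Fgf4 and Fgf17 and the ERK targets and feedback genes Spry2, Spry4, Dusp4, Dusp6, Etv1, Etv4, Etv5 and Il17rd. Spry4, a feedback inhibitor induced by FGF signaling, changed by -3.93 ± 0.24 (SE; edgeR adjusted p = 7.41e-05), from 21.7 and 18.2 CPM to 1.49 and 1.07. Dusp6, an ERK phosphatase, changed by -1.20 ± 0.20 (SE; edgeR adjusted p = 0.00407), from 97.6 and 100.2 to 39.4 and 44.8. So the libraries highest in Fgf3 and Fgf15 were low in these genes. The low level was not particular to day 2. Summed FPKM of the whole list, the 2 members included, was 136 to 140 on day 1, 83.8 to 87.5 on day 2 and 83.6 to 87.1 on day 3. At day 3 against day 2 edgeR called 1 of the other 17, Dusp4, higher, beside 2.81% of all genes, and 0 lower, beside 1.26%. DESeq2 called 5 higher at that step.

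Ventral and dorsal genes were both present at day 2. Of 14 genes on the hedgehog list, none of them a member, 13 rose from day 1 to day 2, beside 9.65% of all genes, with Nkx6-1 at 6.59 ± 0.25 (SE; edgeR adjusted p = 1.12e-05), Gli1 at 3.34 ± 0.39 (SE; edgeR adjusted p = 0.000741) and Ptch1 at 2.47 ± 0.19 (SE; edgeR adjusted p = 0.000128). The list mixes target and feedback genes with the co-receptor genes Boc, Gas1 and Cdon and the cyclin gene Ccnd1. Of these, Boc, Gas1 and Ccnd1 are among the rising genes, so the count is not one of hedgehog targets alone. Ptch1, the hedgehog receptor and target, then held 514 and 473 CPM on day 2 and 477 and 465 on day 3. Of the dorsal and intermediate list, with Msx1 as a member, 3 of 13 other genes tested rose, Pax3 and Dbx1 among them, and Zic5, Gsx1 and Atoh1 fell, beside 9.65% higher and 9.99% lower over all genes. Pax3, a dorsal progenitor factor, had 1.04 and 0.831 CPM on day 1, 3.12 and 5.32 on day 2 and 0.963 and 2.28 on day 3, with a margin of 0.45. None of the 3 rises held without day 1 replicate 1 or without either day 2 library, and the 3 falls became 1 without day 1 replicate 1 and 0 without either day 2 library. The roof plate gene Lmx1a had 1.67 and 1.4 CPM on day 2, and Gdf7 had 0 and 0.111.

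**Figure D5:**
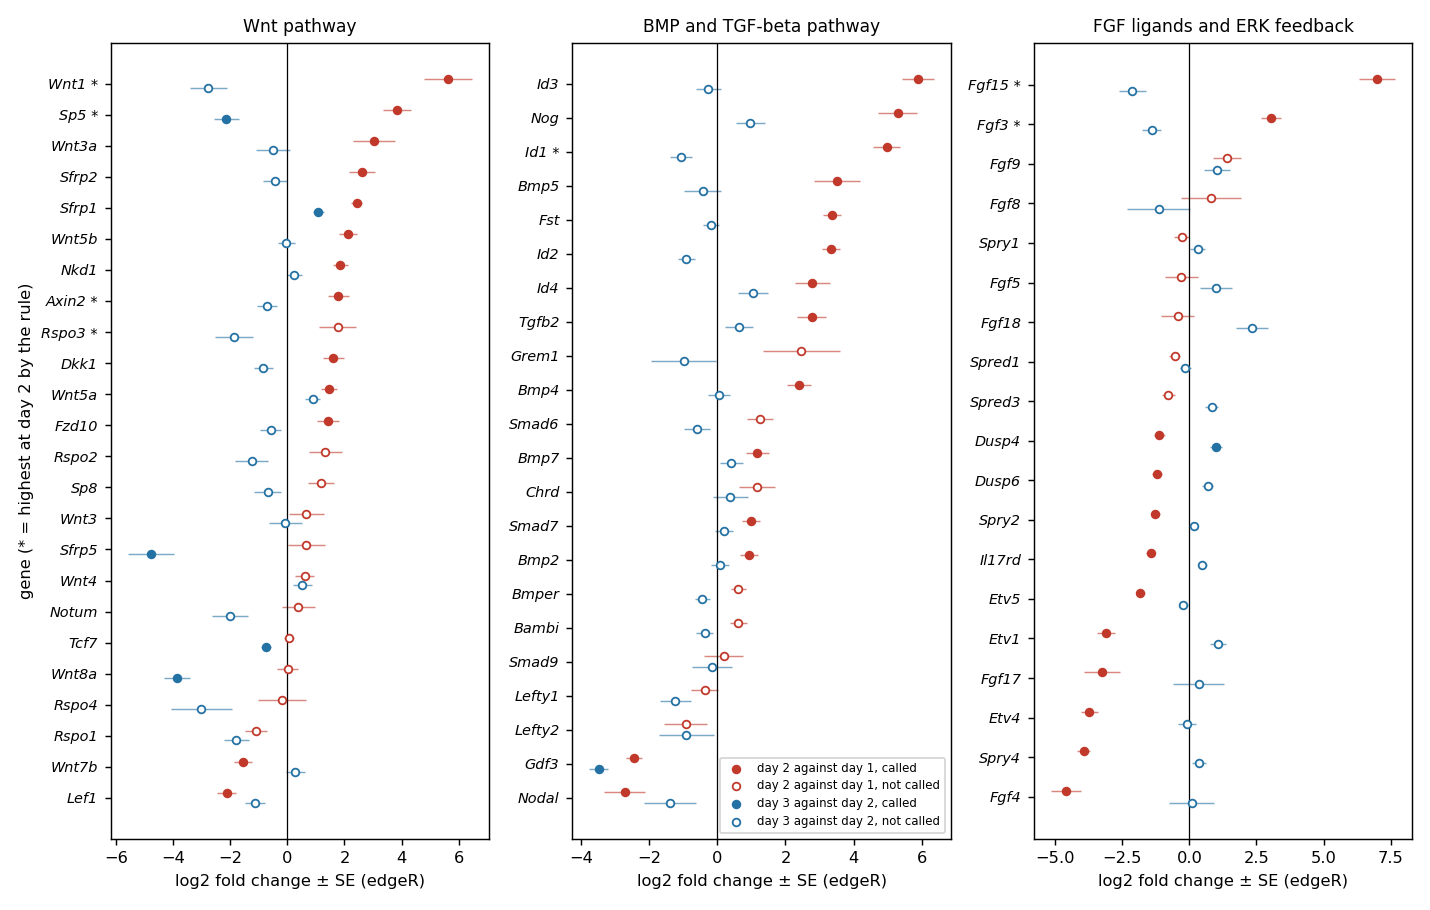
Log2 fold change ± SE (edgeR) of the tested genes of 3 lists, red for day 2 against day 1 and blue for day 3 against day 2, filled where the adjusted p was under 0.05, with asterisks for the 29 genes. Among the red points the 2 FGF members lie right of 0, 10 other FGF genes are filled left of it, and 11 BMP and TGF-beta genes other than Id1 are filled right of it.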

How the data were processed

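Polyadenylated RNA of 11 libraries was analysed, with sample groups taken from the labels. The submitters' processing notes name, without roles, TopHat2 2.0.4, Cufflinks 2.1.1, HTSeq 0.6.1, limma, CASAVA and bcl2fastq 1.8.3, and the builds mm10 and GRCm38. The authors deposited a table of expected counts (38197 genes, of which 104 held fractions, 0 of them among the 29), which was rounded. The deposited log2 values (voom) were recomputed exactly from these counts, with 0.5 added to a count and 1 to a library total. The deposited FPKM values were used for levels per length. No source used here gives the annotation, the counting strand or the origin of the fractions.

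Counts were tested with edgeR 4.0.16 in R 4.3.3 (quasi-likelihood F test, TMM scaling, filterByExpr with a minimum count of 10, Benjamini-Hochberg adjustment over all genes, threshold 0.05). Days 0 to 3 were fitted on 8 libraries (16810 genes) and day 3.5 on all 11 (17006 genes). The fit was also run on simulated counts drawn with the dispersions fitted to these libraries. That run cannot show whether the spread between the real libraries was measured well. DESeq2 1.42.0 and limma 3.58.1 served as alternatives, with FPKM pseudocounts of 1 and 0.1. The replicate numbers did not pair the libraries in a consistent way and were not used as a block in the main fits. The floor of 3 counts covers counting error only.

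The members and the gene lists were chosen with earlier results of these data known. Genes named were the 15 largest margins, the 10 highest day 2 FPKM, up to 3 members per list, up to 4 called members per direction and comparison, and the 3 genes on either side of the limit. Clone and predicted-gene symbols were left out of the largest. Members outside that rule (such as Flt4, Me3, Orai1 and Gm17296), the related genes Ret, Artn, Mdk, Zic4, Myc and Serpinf1 and the list genes were named after their values were seen. Not every gene of the lists is reported here by name.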

Additional observations from a re-analysis of the deposited data

How the results depend on the processing

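The set of 29 genes became 91 with a margin of 0.25, 7 with a margin of 1 and 58 on log2(FPKM + 0.1), of which 24 were shared, and ran from 29 to 112 when 1 library was left out. For day 3 against day 0 the count higher was 17, 10 by limma on log2(FPKM + 1) and 9 to 18 with 1 library left out, and the count lower was 0 to 1. For day 1 against day 0 the count higher was 7, 3 by limma on log2(FPKM + 1) with or without the filter, 4 with pseudocount 0.1 or with only the libraries compared, and 4 to 8 with 1 library left out. The count lower was 5, 2 by limma on the deposited voom values, on each FPKM scale or with only the libraries compared, and 2 to 5 with 1 library left out. For day 3.5 against day 3 the count lower was 2, 4 without a filter, 1 by limma on the voom values, 0 on each FPKM scale and 0 to 3 with 1 library left out; the count higher was 0 in every setting run. Of 270 single-gene results under other settings 217 kept their call and 53 lost it, and of 254 with 1 library left out 198 kept it and 56 lost it, with 0 reversed. The replicate numbers did not pair the libraries in a consistent way, since correlations of replicate differences between days ran from -0.74 to 0.35. The lowest, between days 0 and 1 over 12484 genes, is a strong inverse relation, so replicate differences of these days shared a pattern with opposite sign. The SD of the replicate differences (log2) was largest for the day 0 and day 1 pairs (0.54 and 0.53). It was 0.40 for the day 3 pair and smallest, at 0.26, for the day 2 pair. The source of the shared pattern was not tested. With the replicate block, counts were 16 higher at day 3 against day 0, 6 higher and 3 lower at day 1 against day 0, and 0 lower at day 3.5 against day 3. The cause of these shifts was not tested. Depth limits Wnt1 and 9130410C08Rik, which had libraries under 3 counts.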
